A study of Homo sapiens with 6 samples.

Results

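The clustered histone genes are the protein-coding genes whose GENCODE 29 name begins with HIST1H, HIST2H, HIST3H or HIST4H, and 71 of the 58174 gene IDs in the table met that rule. The HIST1 cluster on chromosome 6 holds 55 of them, the HIST2 cluster on chromosome 1 holds 12, HIST3 holds 3 and HIST4 holds 1. By histone class there are 6 H1, 17 H2A, 18 H2B, 15 H3 and 15 H4 genes. No expression value entered the choice. The GENCODE 29 names are kept here, with current symbols for the leading genes: HIST1H1C is now H1-2, HIST1H1E is H1-4, HIST1H2AC is H2AC6, HIST1H2BK is H2BC12, HIST1H4J is H4C11 and HIST1H4K is H4C12. All 100 annotated transcripts of the 71 genes lie in the table at the positions GENCODE 29 gives on hg38.

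The genes were measured by stranded total RNA sequencing of MDA-MB-231, a human cell line of triple-negative breast cancer. Cells labelled ARID1A knockout form the groups KO1 and KO2, and cells labelled control form the group NC. ARID1A belongs to BAF, a complex that moves nucleosomes, and binds DNA. The labels list 2 samples in each group, 6 in all, while the table holds 1 column of estimated counts and 1 of TPM per group. Whether a column is 1 library or both samples together is not given in the sources used here, and neither is how the knockouts were made or whether each is 1 clone. No spread between cultures can therefore be computed, and the intervals below cover counting error only, for fragments that are not known to be independent molecules. KO1, KO2 and NC stand below for the columns so labelled. The deposited estimates sum to 25801499 counts in KO1, 26144758 in KO2 and 26798753 in NC. Mitochondrial transcripts took 20.45% of the counts in KO1, 16.86% in KO2 and 12.79% in NC, and their part in the results was not tested. ARID1A itself stood at 45.5 CPM in KO1, 83.9 CPM in KO2 and 77.5 CPM in NC. Its RNA was thus not lower in KO2 than in NC, and the KO1 level was lower by less than the size rule used below requires. These RNA values do not show whether the protein was lost. VIM was at 4695 CPM in KO1, 2924 in KO2 and 3422 in NC and KRT18 at 355 CPM in KO1, 207 in KO2 and 142 in NC. ESR1 had 0 counts in KO1, 14 in KO2 and 0 in NC, PTPRC had 0 counts in KO1, 4 in KO2 and 0 in NC, and HBB and PGR were listed at 0 in all 3 columns, whereas ERBB2 was present at 27.9 CPM in KO1, 52.4 in KO2 and 75.9 in NC.

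Clustered histone genes encode the replication-dependent histones. The core histones H2A, H2B, H3 and H4 form the nucleosome, and H1 binds the linker DNA between nucleosomes. In dividing cells these genes are transcribed mainly in S phase under the coactivator NPAT, and most of their mRNAs end in a stem-loop in place of a poly(A) tail. The stem-loop is bound by SLBP, and U7 snRNP with its partner proteins directs the cut downstream of it. Several of the genes are also known to give longer, polyadenylated transcripts. Histone variants such as H1.0, H3.3 and H2A.Z come from separate genes outside the clusters, whose mRNAs are mostly polyadenylated.

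The stem-loop was looked for in the GENCODE 29 transcript sequences on the transcript strand, as the 16-base histone stem-loop with arms of 6 fully paired bases. It was found in 64 of 199025 transcripts, or 0.032%, and 43 of the 64 belong to 30 of the clustered histone genes. A missing match says only that these letters are not in the annotated transcript, and many of these genes are annotated as their coding part alone. The 4 forms found are shown because transcripts are grouped below by where they end relative to it, with the loop between the arms in capitals and the arms in lower case.
H4 form with a TTTC loop, in 5 H4 genes including HIST1H4H and HIST1H4J: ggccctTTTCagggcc
H4 form with a TTTT loop, in HIST1H4I, HIST2H4A and HIST2H4B: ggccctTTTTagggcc
TTTA loop form, in 5 H2B and H3 genes including HIST1H2BC and HIST1H2BD: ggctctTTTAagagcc
TTTC loop form, in 17 H2A, H2B and H3 genes including HIST1H2AC, HIST2H2AA3 and HIST1H3H: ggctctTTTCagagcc

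RefSeq promoter windows (GRCh38.p14, 250 bases before to 50 after the start) were matched for 66 of the 71 genes. Motifs were searched on both strands, and CCAAT stood in 84.8% of the 66 windows against 34.6% of all 35116 windows. TATAAA stood in 66.7% against 11.5%, and the octamer ATTTGCAT in 39.4% against 1.77%. The classes differ in what they carry: the octamer was in 14 of 18 H2B and 11 of 16 H2A windows, in 1 of 13 H3 windows and in none of the 6 H1 or 13 H4 windows. CCAAT was in every H1, H2A, H2B and H3 window matched, but in 3 of 13 H4 windows. Windows of H2A and H2B genes that lie head to head can overlap, with 206 to 331 bases between annotated starts in 12 pairs. A motif there can count for both partners, so the H2A and H2B numbers are not separate. The 150 bases before the start are shown for 4 genes that were higher in both knockout columns and for HIST1H2BK, the gene with the highest mean TPM, which was not. Capitals mark these motifs or their reverse complements, and each sequence reads along the gene's own strand.
HIST1H1C promoter, chr6:26056471-26056620, strand -: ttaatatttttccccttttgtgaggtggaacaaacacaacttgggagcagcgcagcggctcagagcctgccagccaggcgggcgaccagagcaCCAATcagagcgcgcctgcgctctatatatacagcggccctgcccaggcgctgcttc
HIST1H2AC promoter, chr6:26124022-26124171, strand +: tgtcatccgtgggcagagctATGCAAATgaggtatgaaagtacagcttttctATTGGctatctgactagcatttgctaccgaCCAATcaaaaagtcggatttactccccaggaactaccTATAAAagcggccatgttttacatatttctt
HIST1H4J promoter, chr6:27823942-27824091, strand +: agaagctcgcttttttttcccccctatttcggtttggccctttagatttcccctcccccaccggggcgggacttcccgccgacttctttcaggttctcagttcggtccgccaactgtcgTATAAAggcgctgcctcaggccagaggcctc
HIST1H4K promoter, chr6:27831561-27831710, strand -: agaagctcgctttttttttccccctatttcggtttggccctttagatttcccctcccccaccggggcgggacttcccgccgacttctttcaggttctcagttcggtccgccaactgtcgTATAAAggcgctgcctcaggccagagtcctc
HIST1H2BK promoter, chr6:27146859-27147008, strand -: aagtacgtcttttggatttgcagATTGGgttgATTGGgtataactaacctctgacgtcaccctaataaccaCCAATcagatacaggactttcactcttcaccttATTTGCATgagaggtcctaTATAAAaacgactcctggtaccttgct

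The windows of HIST1H4J and HIST1H4K, which lie on opposite strands, were identical at 295 of 300 positions. HIST1H4J and HIST1H4I, another H4 gene, matched at 84 of 300 aligned positions without gaps. HIST1H2AC and HIST1H2BK both carry the octamer, CCAAT and TATAAA in the bases shown. A motif match describes the sequence and is not evidence of binding.

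Most clustered histone genes had few reads. The 71 genes held 8390 estimated counts in KO1, 5880 in KO2 and 4335 in NC, which is 0.0325% of the KO1 column, 0.0225% of KO2 and 0.0162% of NC. A gene was treated as measured when its level averaged at least 1 CPM over the 3 columns, and 23 of the 71 passed this. CPM are counts scaled to a common library size by TMM over all genes. Just inside the limit were HIST1H3H at a mean of 1.015 CPM and HIST1H3C at 1.03 CPM, and just outside were HIST2H3C at 0.985 CPM and HIST1H2BO at 0.957 CPM. Of the other 48 genes, 22 were listed at 0 in all 3 columns, where 3 counts, the floor used here, would be 0.13 CPM in KO1, 0.107 CPM in KO2 and 0.107 CPM in NC. Among the measured genes were 2 H1, 5 H2A, 7 H2B, 3 H3 and 6 H4 genes. By TPM, which is per transcript length, HIST1H2BK led with a mean of 204 TPM, ahead of HIST1H1C at 143 TPM, HIST2H2AA3 at 37.0 TPM, HIST2H2AA4 at 35.9 TPM and HIST1H2AC at 23.8 TPM.

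More of the measured genes stood higher than lower in both knockout columns, by many in KO1 and by fewer in KO2. A gene passed the size rule when its log2 fold (prior count 2) was at least 1 in size, the exact 95% counting interval of its fold (Clopper-Pearson) excluded equality and it was measured. No p-value comes with this rule. In KO1 against NC, 14 of the 23 measured genes were past it as higher and 0 as lower, where 15.2% of 14522 measured genes were past it as higher and 17.7% as lower, 32.9% in all. In KO2 against NC, 6 of 23 were higher and 0 lower, where 11.0% of all measured genes were higher and 10.1% lower, 21.1% in all. The 6 were HIST1H1C, HIST1H1E, HIST1H2AC, HIST1H2BN, HIST1H4J and HIST1H4K, and all were also among the 14 in KO1, where 6.19% of all measured genes were higher in both. None was lower in both, where 5.78% of all measured genes were. Both comparisons use the same NC column. The 14 include both genes of the pairs HIST2H2AA3 and HIST2H2AA4, HIST2H4A and HIST2H4B, and HIST1H4J and HIST1H4K. Each of these pairs largely shares its sequence, so its genes are not separate measurements, and the last pair is also among the 6. The median log2 fold of the 23 genes was 1.44 in KO1 and 0.22 in KO2, and over all measured genes it was -0.03 in KO1 and -0.01 in KO2. A gene that reached the mean through the column where it was high is in the 23 for that reason, so these counts and medians describe the measured genes and not all 71. In TPM, where the rule is a fold of 2 with no counting interval, 14 of the 31 genes with a mean of at least 1 TPM were higher in KO2, where 12.3% of all such genes were, and with no limit on the mean 14 of 49 were, where 9.58% of all genes with a count were. From transcripts of at most 1000 bases, 7 of 14 were higher in KO1, where 17.7% of all genes were. At a mean of at least 5 CPM, 4 of 8 were higher in KO1, where 13.1% of all genes were, and 2 of 8 in KO2, where 8.88% were. In bulk RNA, more cells expressing a histone gene and more of its RNA per cell cannot be told apart.

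With both knockout columns as 1 group of 2 against NC, edgeR's quasi-likelihood F test called 0 of the 37 clustered histone genes it tested at an adjusted p under 0.05, where 0.262% of 18289 genes were called. At an unadjusted p under 0.05 there were 5, where 8.13% of all genes tested were, namely HIST1H1C, HIST1H4J, HIST1H4K, HIST1H2AC and HIST1H2AM, and DESeq2 also called 0 of 36, where 1.65% of 18097 genes were called, with 4 at an unadjusted p under 0.05, where 7.74% of all genes were. For HIST1H1C, which had the smallest of these p-values, the unadjusted edgeR p was 0.0223 and the adjusted p 0.454. The test leaves 1 residual degree of freedom and takes NC to vary like the knockout columns.

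**Figure D1:**
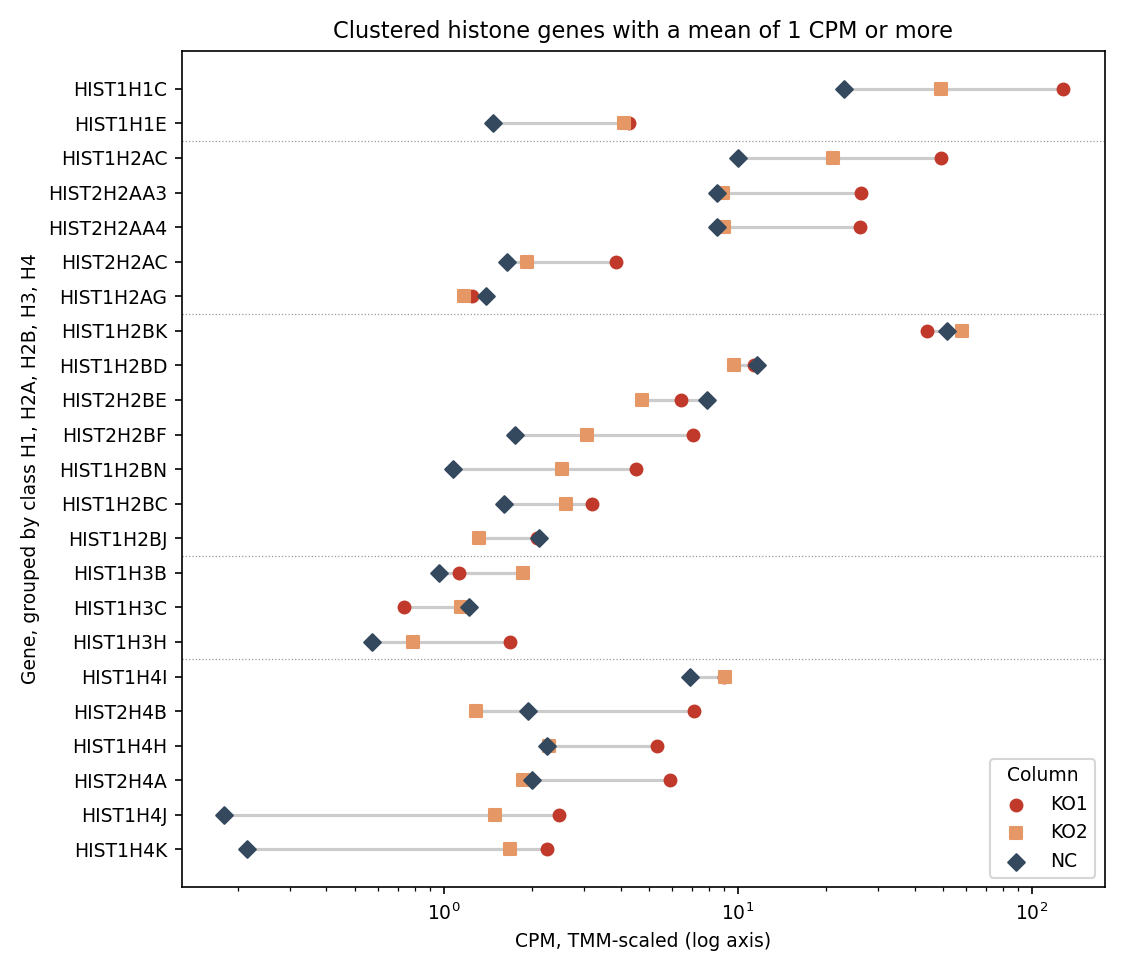
Level of the 23 clustered histone genes with a mean of 1 CPM or more, in CPM on a log axis, by gene and histone class, with 1 point per column (KO1, KO2, NC) and no replicate spread. HIST1H1C lies at 127.6 CPM in KO1, 48.98 in KO2 and 22.96 in NC, while HIST1H2BK lies at 43.9 CPM in KO1, 58.0 in KO2 and 51.5 in NC, with all 3 points close together.

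The classes stood apart when counts were summed. The H1 genes summed to 131.9 CPM in KO1, 53.1 CPM in KO2 and 24.4 CPM in NC, which is 5.40-fold in KO1 and 2.17-fold in KO2. The H2A genes summed to 110.8 CPM in KO1, 46.2 in KO2 and 31.3 in NC, 3.54-fold in KO1 and 1.47-fold in KO2 over NC. The H4 genes summed to 33.3 CPM in KO1, 20.2 in KO2 and 14.5 in NC, 2.30-fold in KO1 and 1.395-fold in KO2. In these 3 classes the KO1 column was the highest and NC the lowest, and the intervals of all 6 folds excluded equality. The H2B genes, in contrast, summed to 80.9 CPM in KO1, 83.7 in KO2 and 79.2 in NC, a fold of 1.02 (0.959 to 1.09) in KO1 and 1.06 (0.996 to 1.12) in KO2. The H3 genes had 6.06 CPM in KO1, 6.71 in KO2 and 5.80 in NC, a fold of 1.04 in KO1 (0.826 to 1.32) and 1.16 in KO2 (0.932 to 1.44). Summed over all 71 genes the level was 362.9 CPM in KO1, 209.9 CPM in KO2 and 155.3 CPM in NC, 2.34-fold (2.25 to 2.42) in KO1 and 1.35-fold (1.30 to 1.41) in KO2.

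The sums rest on few genes and, for the smaller folds, on the scaling. Without HIST1H1C, left out after the data were seen, the remaining genes summed to 235.3 CPM in KO1, 160.9 in KO2 and 132.3 in NC, a fold of 1.78 in KO1 and 1.22 in KO2. Without HIST1H2BK, its highest member, the H2B class summed to 36.9 CPM in KO1, 25.7 in KO2 and 27.7 in NC. That was a fold of 1.33 (1.21 to 1.47) in KO1 and 0.928 (0.838 to 1.03) in KO2. In TPM the same H2B genes had 46.5 in KO1, 48.8 in KO2 and 47.9 in NC. In summed TPM the 71 genes had 682.7 in KO1, 602.4 in KO2 and 427.9 in NC, a fold of 1.60 in KO1 and 1.41 in KO2, on a scale where the median of all measured genes was itself -0.39 (log2) in KO1 and 0.05 in KO2. In TPM the H2B genes had 189.4 in KO1, 301.9 in KO2 and 263.2 in NC, a fold of 0.72 in KO1, and the H3 genes 10.05 in KO1, 20.25 in KO2 and 12.86 in NC, a fold of 0.781 in KO1, so neither class has a direction in KO1 that holds across scalings. The folds of H1, H2A and H4 in KO1 stayed between 1.97 and 5.40 under TMM, DESeq2 size factors, total counts, nuclear total counts and TPM. As a share of summed histone TPM, H1 genes made 37.1% in KO1, 22.6% in KO2 and 14.0% in NC, and H2B genes 27.8% in KO1, 50.1% in KO2 and 61.5% in NC.

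**Figure D2:**
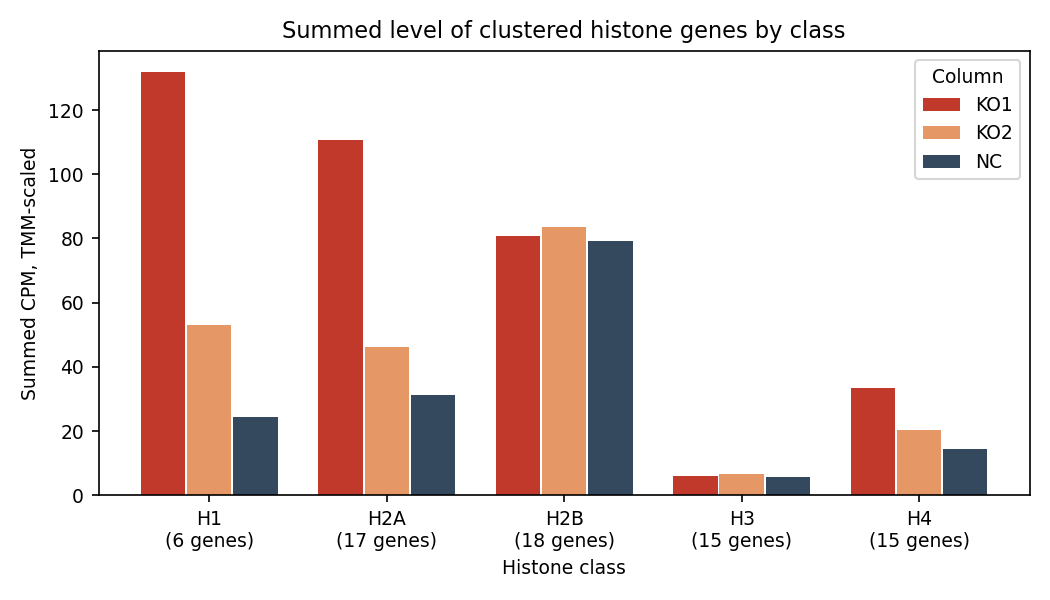
Summed CPM of the clustered histone genes by class, with 1 bar per column (KO1, KO2, NC), an axis from 0 and no replicate spread. H1 stands at 131.9 CPM in KO1, 53.1 in KO2 and 24.4 in NC and H2A at 110.8 CPM in KO1, 46.2 in KO2 and 31.3 in NC, while the 3 H2B bars lie between 79.2 and 83.7 CPM.

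Linker histones had the largest class fold, and HIST1H1C carried nearly all of it. HIST1H1C (ENSG00000187837, hg38 chromosome 6, 26055787 to 26056428, minus strand) encodes H1.2 and had 2950 counts in KO1, 1372 in KO2 and 641 in NC. At 127.6 CPM in KO1, 48.98 in KO2 and 22.96 in NC, it was 5.56-fold higher in KO1 (5.10 to 6.06) and 2.13-fold higher in KO2 (1.94 to 2.35) than in NC. The KO2 level was 0.384 of the KO1 level. HIST1H1E, the gene of H1.4, had 99 counts in KO1, 115 in KO2 and 41 in NC, or 4.28 CPM in KO1, 4.11 in KO2 and 1.47 in NC, 2.92-fold in KO1 and 2.80-fold in KO2 over NC, with KO1 and KO2 nearly equal. The other 4 genes, HIST1H1A, HIST1H1B, HIST1H1D and the testis gene HIST1H1T, were listed at 0 in all 3 columns.

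Among H2A genes, HIST1H2AC (ENSG00000180573, hg38 chromosome 6, 26124145 to 26139116, plus strand) had 1134 counts in KO1, 589 in KO2 and 280 in NC. Its 49.0 CPM in KO1, 21.0 in KO2 and 10.03 in NC were 4.89-fold in KO1 (4.29 to 5.59) and 2.10-fold in KO2 (1.82 to 2.43) over NC. The near-identical copies HIST2H2AA3 and HIST2H2AA4 shared 100% and 97.1% of their 50-base windows with other histone genes. Their split is therefore an estimate, and their sum is the safer value. Together they had 52.5 CPM in KO1, 17.9 CPM in KO2 and 17.1 CPM in NC, 3.08-fold in KO1 (2.77 to 3.43) and 1.049-fold in KO2 (0.923 to 1.19). Here KO2 sat with NC and KO1 alone was high. HIST2H2AC had 3.85 CPM in KO1, 1.93 in KO2 and 1.65 in NC, a fold of 2.34 in KO1. HIST1H2AG had 1.25 CPM in KO1, 1.18 in KO2 and 1.40 in NC, with folds of 0.898 in KO1 and 0.843 in KO2 whose intervals included equality. Under the 1 CPM mean, HIST1H2AM had 29 counts in KO1, 31 in KO2 and 3 in NC, a ratio of 11.7 in KO1 (3.62 to 59.9) and 10.3 in KO2, and HIST1H2AI had 22 counts in KO1, 25 in KO2 and 6 in NC. HIST1H2AM shares 86.3% of its 50-base windows with HIST1H3J, which overlaps it on the same strand, and HIST1H2AI shares 62.3% with HIST1H2AJ, so these counts depend on how shared reads were divided.

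H2B had the highest summed TPM of the classes in NC, and its 3 genes with the highest mean CPM did not pass the size rule. HIST1H2BK (ENSG00000197903, hg38 chromosome 6, 27146418 to 27146798, minus strand) had 1016 counts in KO1, 1624 in KO2 and 1438 in NC, or 43.9 CPM in KO1, 58.0 in KO2 and 51.5 in NC, a fold of 0.853 in KO1 (0.786 to 0.925) and 1.13 in KO2 (1.048 to 1.21). It shares 74.1% of its 50-base windows with other histone genes and 61.4% with the copy H2BFS outside the clusters. With that copy added the values were 45.8 CPM in KO1, 59.87 in KO2 and 52.77 in NC. HIST1H2BD had 11.4 CPM in KO1, 9.71 in KO2 and 11.6 in NC, and HIST2H2BE had 6.40 CPM in KO1, 4.75 in KO2 and 7.85 in NC. HIST1H2BJ, the lowest of the measured H2B genes by mean CPM, had 2.08 CPM in KO1, 1.32 in KO2 and 2.11 in NC. None of these 4 genes was past the size rule in KO1 or in KO2 against NC. By contrast HIST2H2BF, at 7.05 CPM in KO1, 3.07 in KO2 and 1.76 in NC, was 4.02-fold higher in KO1 (2.90 to 5.65) and had a fold of 1.75 in KO2. HIST1H2BN, at 4.50 CPM in KO1, 2.53 in KO2 and 1.07 in NC, was past the rule in both columns, 4.19-fold in KO1 and 2.36-fold in KO2 over NC. HIST1H2BC had 3.20 CPM in KO1, 2.61 in KO2 and 1.61 in NC, and its 1.99-fold in KO1 lay just outside the rule. Exons of HIST2H2BF overlap FCGR1A on the other strand and those of HIST1H2BN overlap HIST1H2AK and HIST1H2AL, and whether counting used strand is not given in the sources used here.

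H3 was the class with the lowest summed TPM in each column. HIST1H3B had 26 counts in KO1, 52 in KO2 and 27 in NC, or 1.12 CPM in KO1, 1.86 in KO2 and 0.967 in NC, with KO2 the highest. HIST1H3C had 17 counts in KO1, 32 in KO2 and 34 in NC, or 0.735 CPM in KO1, 1.14 in KO2 and 1.22 in NC. HIST1H3H had 39 counts in KO1, 22 in KO2 and 16 in NC, or 1.69 CPM in KO1, 0.785 in KO2 and 0.573 in NC, and was the only measured H3 gene past the rule, 2.94-fold higher in KO1 (1.61 to 5.64). The copies HIST2H3A and HIST2H3C summed to 1.90 CPM in KO1, 1.29 in KO2 and 2.62 in NC. That is a fold of 0.728 in KO1 (0.489 to 1.07) and 0.491 in KO2 (0.320 to 0.742), where the first interval includes equality. Each copy was under the 1 CPM mean. Their exons overlap those of HIST2H4B and HIST2H4A on the opposite strand.

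H4 genes code for the same H4 protein with few exceptions, and 5 of the 6 measured ones were higher in KO1, where 15.2% of all measured genes were. HIST1H4J and HIST1H4K, whose promoter windows are shown above, had the largest folds of any measured clustered histone gene. HIST1H4J (ENSG00000197238, hg38 chromosome 6, 27824108 to 27824480, plus strand) had 57 counts in KO1, 42 in KO2 and 5 in NC. HIST1H4K (ENSG00000273542, chromosome 6, 27831216 to 27831527, minus strand) had 52 in KO1, 47 in KO2 and 6 in NC. Of their 50-base windows, 81.2% and 100% are shared with other histone genes. Their sum of 109 counts in KO1, 89 in KO2 and 11 in NC is therefore the safer value. It was 4.71 CPM in KO1, 3.18 CPM in KO2 and 0.394 CPM in NC, a fold of 11.96 in KO1 (6.43 to 24.7) and 8.06 in KO2 (4.30 to 16.7), the wide intervals coming from the 11 counts in NC. The copies HIST2H4A and HIST2H4B summed to 12.98 CPM in KO1, 3.14 in KO2 and 3.94 in NC, 3.29-fold in KO1 (2.64 to 4.14) and 0.797 in KO2 (0.595 to 1.06). HIST1H4H had 5.32 CPM in KO1, 2.28 in KO2 and 2.26 in NC, 2.36-fold in KO1 and level with NC in KO2. HIST1H4I, the most abundant H4 gene by mean TPM, had 8.997 CPM in KO1, 9.07 in KO2 and 6.91 in NC and was past the rule in neither column, with folds of 1.30 in KO1 and 1.31 in KO2.

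In CPM, both main clusters summed above NC in KO1, and HIST1 alone did in KO2. HIST1 genes summed to 277.8 CPM in KO1, 176.6 CPM in KO2 and 119.7 CPM in NC, 2.32-fold in KO1 and 1.47-fold in KO2 over NC, and 8 of the 16 measured HIST1 genes were higher in KO1 and 6 in KO2. HIST2 genes summed to 84.9 CPM in KO1, 32.6 in KO2 and 35.2 in NC, 2.41-fold in KO1 (2.24 to 2.61) and 0.926 in KO2 (0.846 to 1.01). Of the 7 measured HIST2 genes, 6 were higher in KO1 and 0 in KO2. Over all measured genes, 15.2% were higher in KO1 and 11.0% in KO2. The 6 include the near-identical pairs HIST2H2AA3 with HIST2H2AA4 and HIST2H4A with HIST2H4B. In TPM the HIST2 genes summed to 150.9 in KO1, 74.7 in KO2 and 70.7 in NC, so the order of KO2 and NC depends on the scale. HIST2H2BE, at 6.40 CPM in KO1, 4.75 in KO2 and 7.85 in NC, was the measured HIST2 gene not past the rule in KO1. No HIST3 or HIST4 gene was measured, and HIST4H4 had 4 counts in KO1, 19 in KO2 and 11 in NC. The difference between the clusters was not tested, since each value is 1 column.

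In KO2 against KO1, columns with the same labelled genotype, 9 of the 23 measured genes were lower and 0 higher, where 11.1% of all measured genes were lower and 15.1% higher, 26.2% in all. The median log2 fold of the 23 was -0.69, and over all measured genes it was 0.04. The lowest ratios were those of HIST2H4B, at 1.29 CPM in KO2 and 7.09 CPM in KO1, and HIST2H4A, at 1.86 CPM in KO2 and 5.88 CPM in KO1. HIST2H2AA3 had 8.92 CPM in KO2 and 26.4 CPM in KO1, and HIST2H2AA4 had 8.96 CPM in KO2 and 26.1 CPM in KO1. HIST1H1C, HIST1H2AC, HIST1H4H, HIST2H2BF and HIST1H3H made up the rest. The sum over all 71 genes in KO2 was 0.578 of that in KO1 (0.559 to 0.598) in CPM and 0.882 in TPM, so the size of this difference depends on the scale. In TPM, 6 of 31 genes were higher and 5 lower in KO2 than in KO1, where 26.5% of all genes were higher and 6.06% lower.

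The 55 HIST1 genes included a long stretch with almost no counts. From HIST1H4D to HIST1H2BI, 15 consecutive members over 84.6 kb (hg38 chr6:26188765-26273356) summed to 0 counts in KO1, 0 in KO2 and 3 in NC. The 3 counts belonged 1 each to HIST1H2AD, HIST1H2BF and HIST1H2BG. The stretch holds genes of all 5 classes. Other annotated genes inside it, 6 in number with 3 histone pseudogenes among them, summed to 1 count in each column. Its neighbours were HIST1H2BE, with 11 counts in KO1, 5 in KO2 and 2 in NC, and HIST1H4H, with 123 in KO1, 64 in KO2 and 63 in NC. Sharing of sequence was compared with other histone genes only, and 12 of the 15 shared no 50-base window with them. The highest share was 3.31%, against a median of 5.36% over the 23 measured genes and 0.562% over all 71, of which 33 shared none. Exons of HIST1H3D and HIST1H2AD overlap AL031777.3 on the same strand, a gene listed at 0 in all columns. A second stretch of 4 genes, HIST1H2AL, HIST1H1B, HIST1H3I and HIST1H4L, was listed at 0 in all columns, as were the testis genes HIST1H2AA and HIST1H2BA. Both stretches were noticed in the values and have no test.

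**Figure D3:**
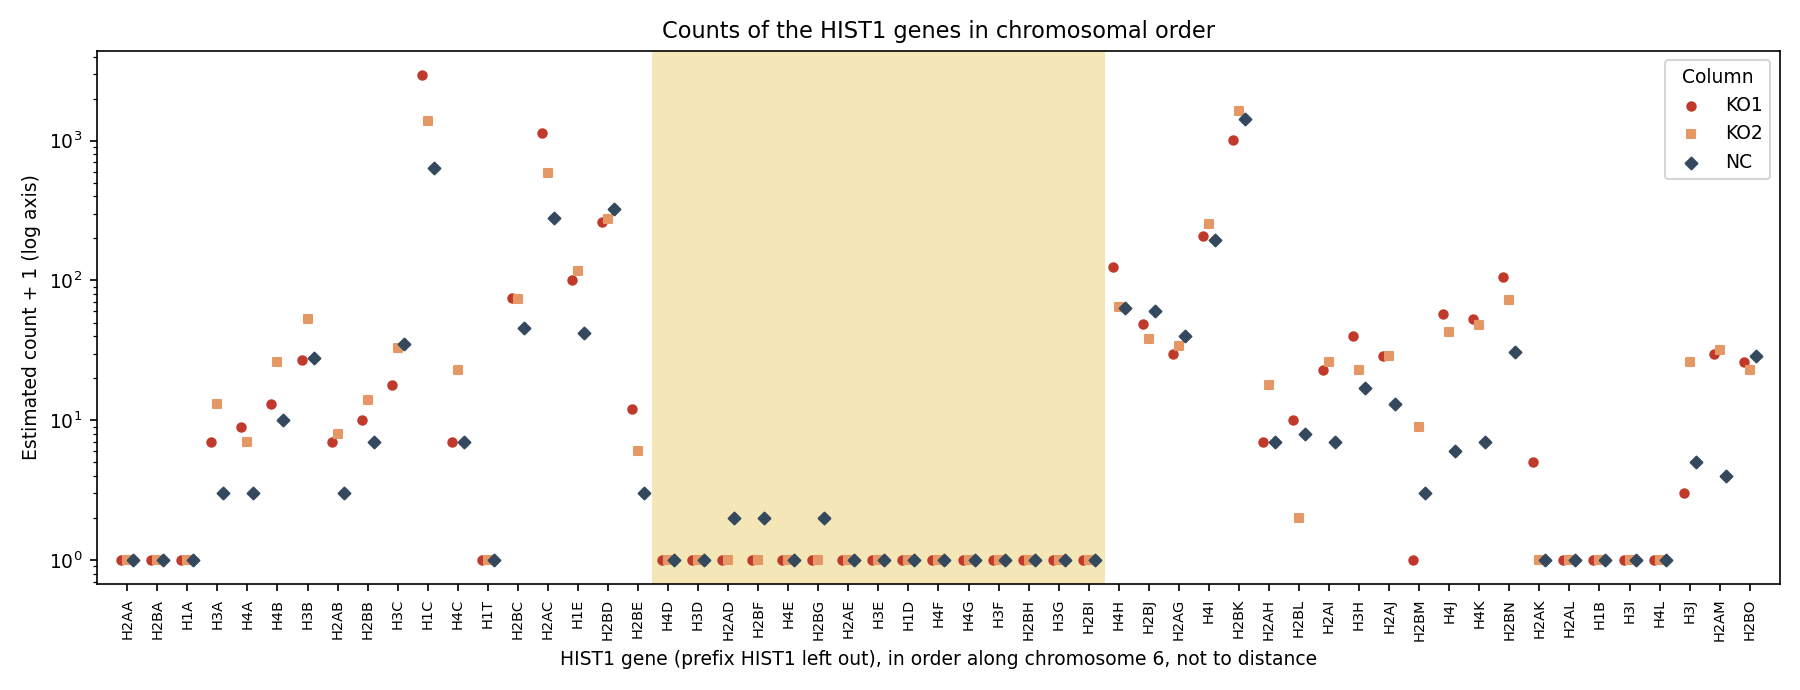
Estimated counts plus 1, on a log axis, for the 55 HIST1 genes in their order along chromosome 6 (not to distance), with 1 point per column (KO1, KO2, NC) and the stretch from HIST1H4D to HIST1H2BI shaded. The 15 shaded genes sum to 0 counts in KO1, 0 in KO2 and 3 in NC, and the highest points belong to HIST1H1C, HIST1H2BK and HIST1H2AC.

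Transcripts were grouped by how their annotated 3' end relates to the stem-loop. Transcripts annotated to end within 100 bases of the stem-loop summed to 60.1 CPM in KO1, 22.5 CPM in KO2 and 18.9 CPM in NC, 3.18-fold in KO1 and 1.19-fold in KO2 over NC. HIST2H2AA3 and HIST2H2AA4 made up most of that, and without them the values were 7.61 CPM in KO1, 4.64 in KO2 and 1.83 in NC, 4.17-fold in KO1 (3.04 to 5.81) and 2.54-fold in KO2 (1.82 to 3.58). Transcripts reaching further past the stem-loop had 28.2 CPM in KO1, 20.9 in KO2 and 20.1 in NC, 1.401-fold in KO1 (1.25 to 1.57) and 1.04-fold in KO2 (0.924 to 1.17). Spliced transcripts had 82.8 CPM in KO1, 39.3 in KO2 and 30.9 in NC, 2.68-fold in KO1 and 1.27-fold in KO2. Genes annotated as their coding part alone, HIST1H1C and HIST1H2BK among them, had 185.9 CPM in KO1, 121.1 in KO2 and 82.3 in NC. The remaining 6 single-exon transcripts had 5.80 CPM in KO1, 6.07 in KO2 and 3.08 in NC. KO1 was the highest column in CPM in each kind but this last one, where KO2 was. In TPM, KO2 was also above KO1 for the transcripts annotated as their coding part alone, at 435.5 in KO1, 439.7 in KO2 and 302.6 in NC, and for those reaching further past the stem-loop, at 21.8 in KO1, 24.4 in KO2 and 19.1 in NC. Differences in fold between the kinds were not tested. Transcript values are the authors' estimates, which divide shared reads among forms of a gene.

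Forms of single genes also differed, as in HIST1H2BD and HIST1H2AC, examples chosen after their values were seen. The stem-loop ended transcript of HIST1H2BD had 25 counts in KO1, 24 in KO2 and 5 in NC, a ratio of 6.04 in KO1 (2.27 to 20.2) and 4.78 in KO2 (1.79 to 16.1). Its spliced transcript had 238 counts in KO1, 248 in KO2 and 320 in NC, a ratio of 0.898 in KO1 and 0.772 in KO2, and this form held most of the gene's reads in each column. HIST1H2AC has 3 spliced forms. The first, which is annotated as nonsense-mediated decay, had 491 counts in KO1, 269 in KO2 and 75 in NC. Another had 568 counts in KO1, 282 in KO2 and 135 in NC, and the last had 75 counts in KO1, 38 in KO2 and 70 in NC. The first pair were 7.90-fold and 5.08-fold higher in KO1 than in NC, whereas the ratio of the last in KO1 was 1.29 (0.921 to 1.82).

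Other genes also have forms that differ by over 500 bases in length. The stem-loop ended form of HIST1H4H had 44 counts in KO1, 10 in KO2 and 17 in NC. Its KO2 ratio to NC was 0.586 (0.240 to 1.355), which includes equality. A spliced form had 37 counts in KO1, 28 in KO2 and 9 in NC, a KO2 ratio of 3.10 (1.42 to 7.47). Another had 41 counts in KO1, 25 in KO2 and 30 in NC, a KO2 ratio of 0.830 (0.468 to 1.46). The last spliced form had 1 count in KO1, 1 in KO2 and 7 in NC. The extended form of HIST1H2BN had 35 counts in KO1, 17 in KO2 and 6 in NC and its spliced form of 4137 bases had 60 in KO1, 32 in KO2 and 20 in NC, while a spliced form of 715 bases had 9 in KO1, 22 in KO2 and 4 in NC. Summed over its forms in TPM the gene was at 2.48 in KO1, 2.80 in KO2 and 0.75 in NC. HIST2H2BF was nearly all its extended form of 1954 bases, with 147 counts in KO1, 84 in KO2 and 49 in NC. NC was the lowest column in each of these 4 forms, and KO1 was the highest in all but the 715-base form of HIST1H2BN, where KO2 was. HIST2H4A was mostly a spliced form of 1547 bases with 86 counts in KO1, 49 in KO2 and 19 in NC and 1 of 942 bases with 49 in KO1, 2 in KO2 and 36 in NC, so its forms do not order the columns alike. HIST2H4B was mostly a spliced form of 1694 bases with 133 counts in KO1, 24 in KO2 and 53 in NC. These forms of HIST2H4A and HIST2H4B, and the 715-base form of HIST1H2BN, are annotated as nonsense-mediated decay. HIST1H2BJ had 20 counts in KO1, 27 in KO2 and 28 in NC for its coding part and 25 in KO1, 8 in KO2 and 26 in NC for a spliced form of 950 bases. HIST1H2BE and HIST4H4 had under 20 counts in every form, and HIST1H3E was listed at 0.

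H2A and H2B genes often lie head to head, and there were 12 such pairs with starts at most 500 bases apart, 7 of them with at least 10 summed counts in each gene. This view was chosen after values were seen, and it carries no test. The H2A gene had the larger ratio to NC in 5 of the 7 pairs in KO1, with 1 pair not given because HIST1H2BM had 0 counts there, and in 6 of 7 in KO2. HIST1H2AC at 4.89 stood beside HIST1H2BC at 1.99 in KO1, with 219 bases between their starts. In KO1 too, HIST2H2AC at 2.34 stood beside HIST2H2BE at 0.816. Likewise in KO1, HIST1H2AM at 11.7 stood beside HIST1H2BO at 1.08, which had 25 counts in KO1, 22 in KO2 and 28 in NC, with the sharing between HIST1H2AM and HIST1H3J given above. The exception in KO1 was HIST1H2AG at 0.898 beside HIST1H2BJ at 0.982. In KO2 the exception was HIST1H2AJ at 2.33 beside HIST1H2BM at 3.99, which rests on 8 counts in KO2 and 2 in NC. Pairs with the larger H2A ratio also rest on few counts in places. In KO1, HIST1H2AH had 6 counts against 6 in NC, a ratio of 1.21 (0.323 to 4.52). HIST1H2BL had 1 count in KO2 and 7 in NC. HIST1H2AI and HIST1H2AJ share sequence, as given above, so their pairs are not separate. The pair of HIST1H2AK and HIST1H2BN was under the count limit. HIST1H2AK had 0 counts in KO2 and in NC, while HIST1H2BN was at 2.36 in KO2.

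**Figure D4:**
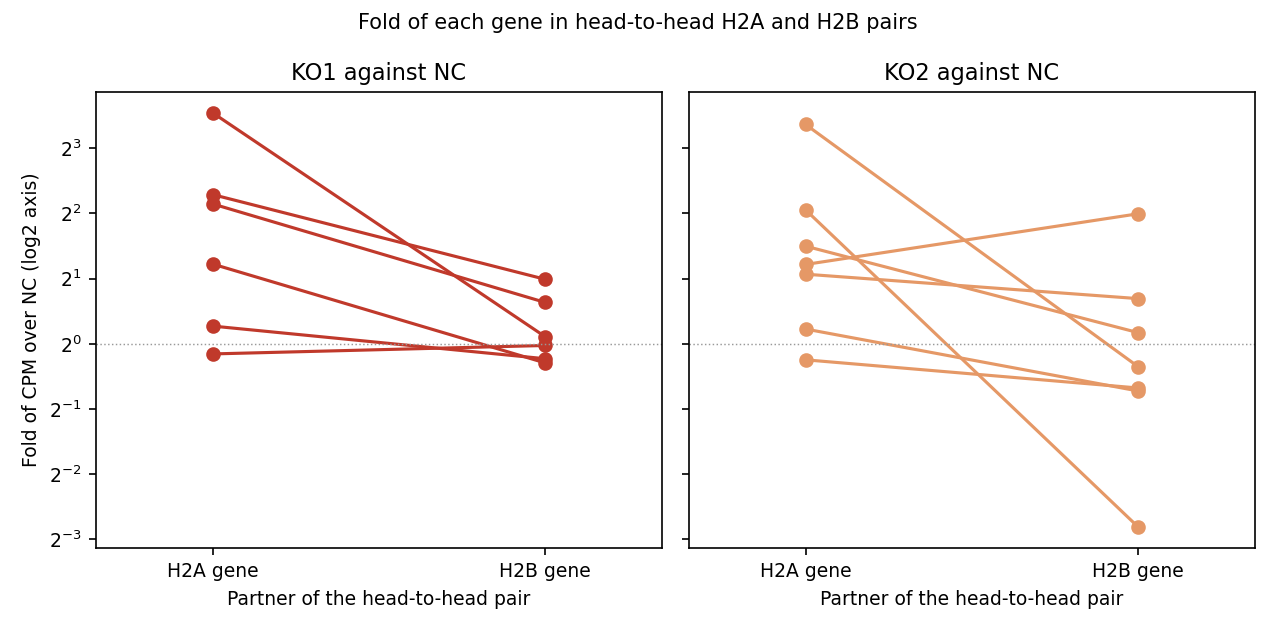
Ratio of CPM to NC, on a log2 axis, of each gene in head-to-head H2A and H2B pairs, with a line joining the partners, for KO1 against NC (left, 6 pairs) and KO2 against NC (right, 7 pairs). The H2A end is the higher in 5 pairs on the left and in 6 on the right.

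The genes that make, process and handle histone mRNA and histones were set beside these values. For the counts in this and the following lists, 15.2% of all measured genes were higher and 17.7% lower in KO1. In KO2, 11.0% were higher and 10.1% lower. Of 25 genes of histone transcription and 3' end processing, all measured, 0 were higher in KO1 and 2 lower, and in KO2 0 were higher and 1 lower, and the median log2 fold was -0.06 in KO1 and -0.04 in KO2. SLBP, the stem-loop binding protein, had 34.7 CPM in KO1, 67.7 CPM in KO2 and 86.4 CPM in NC and was lower in KO1. CASP8AP2, also called FLASH, which acts in 3' end cleavage, had 7.22 CPM in KO1, 29.02 in KO2 and 20.4 in NC and was also lower in KO1. ERI1, an exonuclease that trims and degrades histone mRNA, had 15.3 CPM in KO1, 6.85 in KO2 and 16.9 in NC and was lower in KO2. NPAT, the coactivator, had 22.5 CPM in KO1, 31.8 in KO2 and 18.7 in NC and was past the rule in neither.

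Of 20 histone chaperone genes, KO1 had 1 higher and 6 lower and KO2 had 2 higher and 0 lower, and the list's median (log2 fold) was -0.39 in KO1 and -0.12 in KO2. CHAF1B and CHAF1A, subunits of the CAF-1 complex that deposits H3 and H4 at replication forks, had 10.9 CPM in KO1, 33.0 in KO2 and 50.05 in NC and 33.9 CPM in KO1, 68.3 in KO2 and 87.0 in NC. HIRA, a chaperone of H3.3, had 10.3 CPM in KO1, 40.0 in KO2 and 45.4 in NC, and MCM2, a helicase subunit that binds H3 and H4, had 28.1 CPM in KO1, 69.8 in KO2 and 126.8 in NC. All 4 were lowest in KO1, with KO2 between KO1 and NC. The importin gene IPO4 was higher in KO1, at 76.8 CPM in KO1, 36.2 in KO2 and 37.7 in NC. In KO2 the higher ones were NASP, at 123.2 CPM in KO1, 157.3 in KO2 and 73.3 in NC, and UBN1, at 40.7 CPM in KO1, 47.2 in KO2 and 20.7 in NC.

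Among 19 histone genes outside the clusters, 10 were measured. In KO1, 3 were higher and 0 lower, and in KO2 none was past the rule in either direction, and the median log2 fold was 0.33 in KO1 and 0.16 in KO2. H1F0, which encodes the linker histone H1.0, had 1115.9 CPM in KO1, 486.1 CPM in KO2 and 345.9 CPM in NC. H3F3B, one of the H3.3 genes, had 835.7 CPM in KO1, 326.1 in KO2 and 265.8 in NC, and the linker histone gene H1FX had 634.9 CPM in KO1, 207.5 in KO2 and 236.1 in NC. H2AFX stood at 332 CPM in KO1, 321 in KO2 and 313 in NC and H2AFZ, the H2A.Z gene, at 232 CPM in KO1, 174 in KO2 and 261 in NC.

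**Figure D5:**
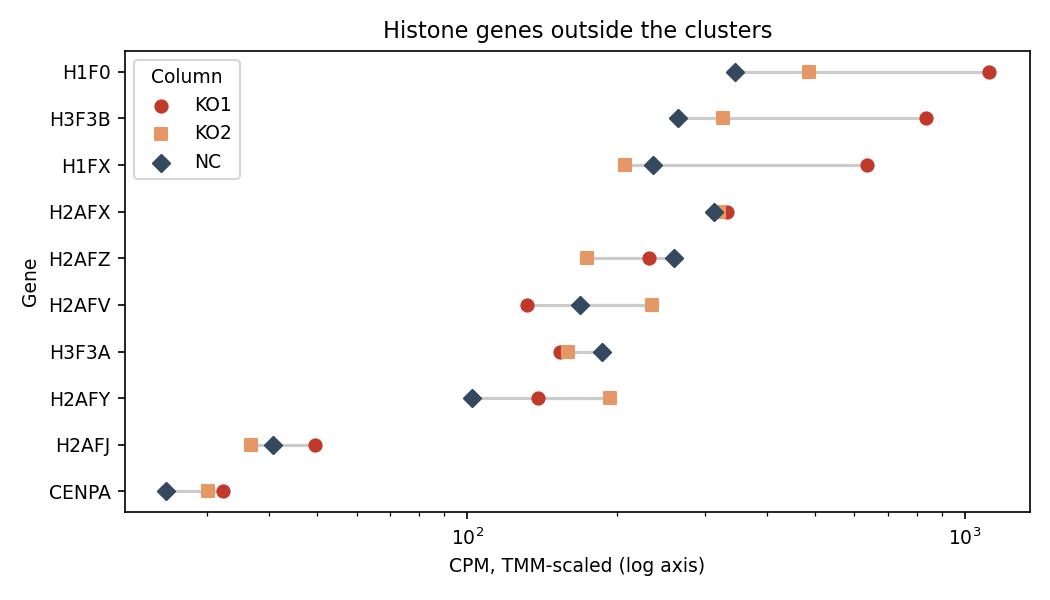
Level of the 10 measured histone genes outside the clusters, in CPM on a log axis, with 1 point per column (KO1, KO2, NC) and no replicate spread. In KO1, H1F0 reaches 1115.9 CPM, H3F3B 835.7 CPM and H1FX 634.9 CPM, apart from KO2 and NC, while the 3 points of H2AFX lie between 313 and 332 CPM.

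Genes of the G1 to S transition were mostly lower in KO1. Of 44 such genes, KO1 had 33 lower and 0 higher and KO2 had 0 lower and 2 higher, and the list's median (log2 fold) was -1.49 in KO1 and -0.24 in KO2. PCNA, the replication clamp, had 37.3 CPM in KO1, 223.3 CPM in KO2 and 258.9 CPM in NC. The lowest folds in KO1 were those of E2F2 (0.735 CPM in KO1, 8.39 in KO2 and 15.8 in NC), CCNE2 (1.08 CPM in KO1, 18.0 in KO2 and 12.7 in NC), UHRF1 (17.1 CPM in KO1, 160.4 in KO2 and 185.0 in NC) and ORC1 (3.42 CPM in KO1, 27.2 in KO2 and 32.9 in NC). SLBP and MCM2 stand in this list too. POLA1, at 22.6 CPM in KO1, 65.3 in KO2 and 27.0 in NC, and CLSPN, at 3.72 CPM in KO1, 41.0 in KO2 and 18.5 in NC, were the 2 higher in KO2. The part of cell cycle position in the histone values was not tested.

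Other RNAs without a poly(A) tail were set beside the histone values. Of 20 gene IDs matched to 19 names, 5 were measured and none was past the rule in KO1 or KO2 against NC, and the median log2 fold was -0.13 in KO1 and 0.67 in KO2. RN7SK had 9.52 CPM in KO1, 14.7 in KO2 and 10.4 in NC, and RMRP, the RNA of RNase MRP, had 4.80 CPM in KO1, 10.2 in KO2 and 6.02 in NC. In these RNAs KO2, not KO1, held the highest value, unlike in the H1, H2A and H4 sums.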

How the data were processed

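RNA was extracted with Trizol and made into stranded total RNA libraries, per the labels' protocols. The table deposited by the authors gives estimated counts and TPM per transcript, per the file headers, with 1 column of each per group, and 3 other columns were not used. A part of the 199167 transcripts was checked for rounding, 20500 in KO1, 22653 in KO2 and 21999 in NC. In this part, 89.7% to 91.0% of the deposited counts lay 0 to 1 above the count their TPM implies (tolerance 0.05). The deposited counts were therefore taken as estimates rounded up. The clustered histone transcripts were not checked separately. CASAVA, Bowtie2, featureCounts and hg38 are named in the submitters' processing notes, without roles.

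Counts were summed per gene and scaled by TMM (edgeR 4.0.16, R 4.3.3). The size rule and the exact intervals were computed in Python 3.11.15 with SciPy 1.17.1. The edgeR quasi-likelihood F test was two-sided with filterByExpr, and p-values were adjusted over all genes tested by Benjamini-Hochberg. DESeq2 1.42.0 was an alternative. The code was tested on simulated data. Members, lists, tests and alternatives were chosen with earlier results of these data known. Values are printed for the 3 members of each class with the highest mean CPM, for up to 5 per direction and comparison past the size rule, for members whose transcripts differ by over 500 bases, and for up to 4 per direction of each other list with SLBP, NPAT, H2AFX, H2AFZ, PCNA and ARID1A. Other members were named after their values were seen. Alternatives changed the scaling, the unit, the limits of the rule, the transcripts and the members.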

Additional observations from a re-analysis of the deposited data

How the results depend on the processing

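In the size rule, 14 members were higher and 0 lower in KO1 against NC, 6 higher and 0 lower in KO2 against NC, and 0 higher and 9 lower in KO2 against KO1, and the log2 folds of the summed members were 1.22 in KO1 against NC, 0.43 in KO2 against NC and -0.79 in KO2 against KO1. No direction of these member sums reversed under any alternative, and by the limits used 69 of the values stayed the same and 40 moved. The H2B and H3 class sums in KO1 and the HIST2 order of KO2 and NC did change direction in TPM, as given above. For the 40 values that moved the cause was not tested, except that settings which leave genes or transcripts out have fewer to count. Scaled to total counts, the sums were 1.01 in KO1 against NC and -0.53 in KO2 against KO1, with 5 members lower there, and over all genes the share of higher among calls moved to 33.35% from 46.13% in KO1 against NC and to 74.75% from 57.64% in KO2 against KO1. Scaled to nuclear total counts the sums were 1.14 in KO1 against NC, 0.54 in KO2 against NC and -0.60 in KO2 against KO1, and that share was 61.35%, from 51.96%, in KO2 against NC and 70.6% in KO2 against KO1. From summed TPM the sums were 0.67 in KO1 against NC, 0.49 in KO2 against NC and -0.18 in KO2 against KO1. Of 31 members, 1 was lower in KO1 against NC and 14 were higher in KO2 against NC. In KO2 against KO1, 6 were higher and 5 lower. Of all genes, 26.5% were lower in KO1 against NC in TPM, and the other shares are given above. With transcripts of at most 1000 bases, 7 of 14 members were higher in KO1 against NC, where 17.7% of all genes were. In that setting 1 was lower in KO2 against NC, where 13.4% of all genes were. In KO2 against KO1, whose sum was -0.73, 4 were lower, where 16.5% of all genes were. Without the HIST2 genes that share a near-identical copy the sums were 1.17 in KO1 against NC, 0.51 in KO2 against NC and -0.66 in KO2 against KO1. That setting kept HIST1H4J and HIST1H4K. It gave 10 higher in KO1 against NC, 6 higher in KO2 against NC and 5 lower in KO2 against KO1. In HIST1 alone, 8 were higher in KO1 against NC and 4 lower in KO2 against KO1, with sums of 0.56 in KO2 against NC and -0.65 in KO2 against KO1. A fold limit of 1.5 gave 2 lower in KO2 against NC and 1 higher in KO2 against KO1. The percentages of all genes past the rule are not given for that limit or for total counts. With no limit on the mean, 14 of 49 were higher and 1 lower in KO2 against NC and 5 higher in KO2 against KO1. Over all genes with a count, 9.58% were higher and 8.58% lower in KO2 against NC, and 11.0% higher in KO2 against KO1. At a mean of at least 5 CPM, 4 of 8 were higher in KO1 against NC, 2 higher in KO2 against NC and 4 lower in KO2 against KO1. Over all genes at that limit, 13.1% were higher in KO1 against NC, 8.88% higher in KO2 against NC and 9.62% lower in KO2 against KO1. Chosen after seeing the data, leaving out HIST1H1C gave sums of 0.83 in KO1 against NC, 0.28 in KO2 against NC and -0.55 in KO2 against KO1, and leaving out the 5 members with the highest mean CPM gave 0.74 in KO1 against NC, 0.25 in KO2 against NC and -0.49 in KO2 against KO1, with 5 lower in KO2 against KO1. The edgeR test called 0 members in every setting, with a smallest adjusted p of 0.208 with no filter on low counts and 0.53 with nuclear protein-coding genes only, while 493 and 9 of all genes were called. No paired analysis was possible because the columns carry no replicate number and there is 1 per group. Leaving out a replicate was likewise not run, since it leaves no residual degree of freedom. With under 20 counts in a column, as for HIST1H4J in NC, counting error alone limits a ratio to within several fold.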

Other observations

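Other protein-coding genes lie between the histone genes of the HIST1 cluster (hg38 chr6:25726132-27893843), 20 in number, of which 13 were measured. In KO1 against NC, 3 were past the size rule as higher and 2 as lower, where 15.2% of all measured genes were higher and 17.7% lower. In KO2 against NC, 5 were higher and 2 lower, where 11.0% of all measured genes were higher and 10.1% lower. The median log2 fold was 0.30 in KO1 and 0.94 in KO2. The genes named here were picked after their values were seen. ZNF391, a zinc finger gene, had 372 counts in KO1, 138 in KO2 and 37 in NC, or 16.1 CPM in KO1, 4.93 in KO2 and 1.33 in NC. PRSS16, a serine protease gene, had 68 counts in KO1 and 75 in KO2 and was listed at 0 in NC. Both were higher in both knockout columns. The butyrophilin gene BTN3A2, at 3.63 CPM in KO1, 4.07 in KO2 and 16.3 in NC, was lower in both, and the related gene BTN3A1, at 4.41 CPM in KO1, 7.18 in KO2 and 2.44 in NC, was higher in KO2. TRIM38 had 45.7 CPM in KO1, 53.1 in KO2 and 23.1 in NC, and HFE, an iron regulator, had 6.92 CPM in KO1, 4.61 in KO2 and 12.4 in NC.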
